A study of Mus musculus with 4 samples.

Results

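The 10 genes described here encode the kinases of the Hippo pathway, their adaptors and the proteins that act upstream of them: Lats1, Lats2, Stk3, Stk4, Sav1, Mob1a, Mob1b, Nf2, Wwc1 and Map4k4. Their interactions were taken from a list of contacts made by H3K27ac HiChIP, which combines the joining of DNA pieces that lie near each other in the nucleus with a pull-down of those carrying acetylated lysine 27 of histone H3, a mark of active promoters and enhancers. An interaction, a listed pair of 10 kb bins (its anchors), was counted for a gene when either anchor overlapped the gene body or the 2.5 kb around either gene end. By this rule the 10 genes had 144 of the 99041 listed interactions (0.145%), and 0 interactions joined a pair of them. All positions are of mm10.

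The series describes 4 mouse brain libraries, all with the H3K27ac antibody. The group YAP-M tumor (2 libraries, genotype YAP-M fusion) is cells taken from brain tumors that carry a fusion which the study names YAP-M, here read as YAP1 joined to MAMLD1. The group mNSC (2 libraries, wild type) is neural stem or progenitor cells, cultured in a medium with EGF, basic FGF and heparin. The labels carry the same culture text for the tumor, so whether its cells were cultured cannot be told from them. The delivery of the fusion, the promoter that drives it and the strain and age of the animals were not given in the sources, and nothing in them says that the libraries of a group came from separate animals or cultures. The list holds 1 set of positions without read counts, scores or a column for a library. It is read as that of the tumor from the letters YM in its name. Values therefore have no replicate error, no comparison between tumor and mNSC was made, and depth is unknown.

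As a check of the labelled tissue by the same rule, 7 of 7 neural progenitor markers had interactions (7 at Nes to 50 at Hes1), where 67.8% of all coding genes had at least 1. Of 5 ependymal markers, 3 did, with Dnah9 and Rsph1 at 0. Among markers of other cell types, 5 of 5 microglial genes had 2 to 3 interactions each. Endothelial genes had interactions at 4 of 5 (0 at Tie1 to 16), oligodendrocyte genes at 3 of 4 (0 at Mog to 15) and neuronal genes at 4 of 5 (0 at Tubb3 to 13). With lists this short, shares near 67.8% say little about the tissue. In a bulk library the contribution of each cell type cannot be told apart, and their part in the values below was not tested.

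The Hippo pathway restrains growth by keeping the co-activators YAP and TAZ out of the nucleus. The kinases MST1 and MST2 (genes Stk4 and Stk3), held by the scaffold SAV1, activate LATS1 and LATS2, which work with MOB1A or MOB1B and phosphorylate YAP. NF2 (merlin) and KIBRA (gene Wwc1) bring these kinases to the cell membrane, and MAP4K4 can activate the LATS kinases in parallel to MST. Lats2 and Nf2 have themselves been described as genes that YAP and its DNA-binding partners of the TEAD family induce, a negative feedback. Work on the YAP1-MAMLD1 fusion has tied it to TEAD and to nuclear factor I (NFI).

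Start sites of 8 of the 10 genes were in the RefSeq promoter table (GRCm38.p6, the assembly of mm10). Map4k4 and Stk3 are named only. All 8 had an interaction within 2.5 kb of a start site, as did 60.1% of the 16457 coding genes in that table. The promoters below are shown because the start-site bins of Nf2 and Sav1 hold most of their contacts, because the LATS paralogs differ in count, and, for Mob1a, because it holds a TEAD core. Each runs from 250 bases before the start site to 30 bases after it, 5′ to 3′ on the strand of the gene. Capitals mark matches, on either strand, to GGAATG (the TEAD core, CATTCC on the other strand), TTGGCA (an NFI recognition core, TGCCAA on the other strand) or CACGTG (an E-box, which reads the same on both strands).
Lats2 chr14:57746094-57746373 (- strand): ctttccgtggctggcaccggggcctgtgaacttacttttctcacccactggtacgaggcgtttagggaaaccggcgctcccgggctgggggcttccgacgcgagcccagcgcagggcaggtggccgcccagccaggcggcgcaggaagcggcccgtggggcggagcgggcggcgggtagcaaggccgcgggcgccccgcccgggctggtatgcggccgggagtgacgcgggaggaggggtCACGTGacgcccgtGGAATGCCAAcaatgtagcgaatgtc
Lats1 chr10:7680959-7681238 (+ strand): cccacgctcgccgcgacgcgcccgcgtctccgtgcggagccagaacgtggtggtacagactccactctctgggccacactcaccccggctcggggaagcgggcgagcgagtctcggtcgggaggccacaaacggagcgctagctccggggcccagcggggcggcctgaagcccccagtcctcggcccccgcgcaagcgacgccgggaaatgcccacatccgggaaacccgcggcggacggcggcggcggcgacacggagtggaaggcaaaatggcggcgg
Sav1 chr12:69986973-69987252 (- strand): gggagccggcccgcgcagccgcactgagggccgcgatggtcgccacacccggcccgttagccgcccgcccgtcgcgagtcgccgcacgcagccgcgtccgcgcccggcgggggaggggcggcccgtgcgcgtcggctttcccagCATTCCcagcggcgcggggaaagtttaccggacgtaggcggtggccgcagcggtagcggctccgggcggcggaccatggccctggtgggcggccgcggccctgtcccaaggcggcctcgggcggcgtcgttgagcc
Mob1a chr6:83325789-83326068 (+ strand): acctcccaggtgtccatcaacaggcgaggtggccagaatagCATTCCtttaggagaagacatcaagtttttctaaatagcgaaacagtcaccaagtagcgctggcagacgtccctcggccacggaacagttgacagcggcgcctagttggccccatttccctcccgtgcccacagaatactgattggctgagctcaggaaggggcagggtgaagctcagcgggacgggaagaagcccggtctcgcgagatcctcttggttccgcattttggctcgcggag
Nf2 chr11:4849515-4849794 (- strand): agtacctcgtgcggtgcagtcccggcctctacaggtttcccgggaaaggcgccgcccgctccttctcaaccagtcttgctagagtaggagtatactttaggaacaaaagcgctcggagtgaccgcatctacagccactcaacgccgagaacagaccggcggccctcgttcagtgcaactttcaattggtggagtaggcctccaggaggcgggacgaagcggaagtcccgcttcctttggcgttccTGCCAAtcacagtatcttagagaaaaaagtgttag

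In the Lats2 promoter the TEAD core begins at base 5, counted from the start site as base 1, and the NFI core begins at base 9, so the 2 overlap and print as a single run of capitals. An E-box lies 10 bases before the same start site. The TEAD core of Sav1 begins 106 bases and that of Mob1a 209 bases before the start site, both on the opposite strand, and the NFI core of Nf2 begins 5 bases before it. Over the whole 300 bases of the table's windows, the TEAD core was in 3 of the 10 promoters of the 8 genes (Lats2 and Nf2 have 2 each), and in 13.4% of 20085 coding-gene promoters. The NFI core was in 2 of the 10 (13.1% of all), and the E-box in 3 of the 10, at Lats2, Stk4 and Mob1b (7.89% of all). The AP-1 sequence TGANTCA was in 0 of the 10 (7.06% of all). A match of these letters is a description of the sequence and not a bound site, and the letters searched for were chosen after the promoters had been read. In Lats1 the 300 bases held none of the 4. The main promoters of all 8 were rich in CpG: they held 19 (Mob1a) to 50 (Sav1) CpG dinucleotides, against a median of 14 for coding-gene promoters. The second annotated promoters of Nf2 and Lats2, inside the genes, held 2 and 4.

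All 10 genes had at least 1 interaction (exact 95% interval 69.2 to 100%), whereas 67.8% of the 20665 autosomal coding genes did. The 10 genes were chosen with earlier results of these data known, so the interval does not test this difference. Their counts ran from 2 at Lats1 to 60 at Map4k4, with a median of 11.5 against 3 for all coding genes. Because a long gene covers more bins, each gene was also set beside coding genes of like length (at least 0.8 times its length, and no more than its length divided by 0.8), and 8 of the 10 lay above the median of those genes. The 2 below it were Lats1 and Stk3. Map4k4 alone held 41.7% of the interactions, and the other 9 genes held 84.

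**Figure D1:**
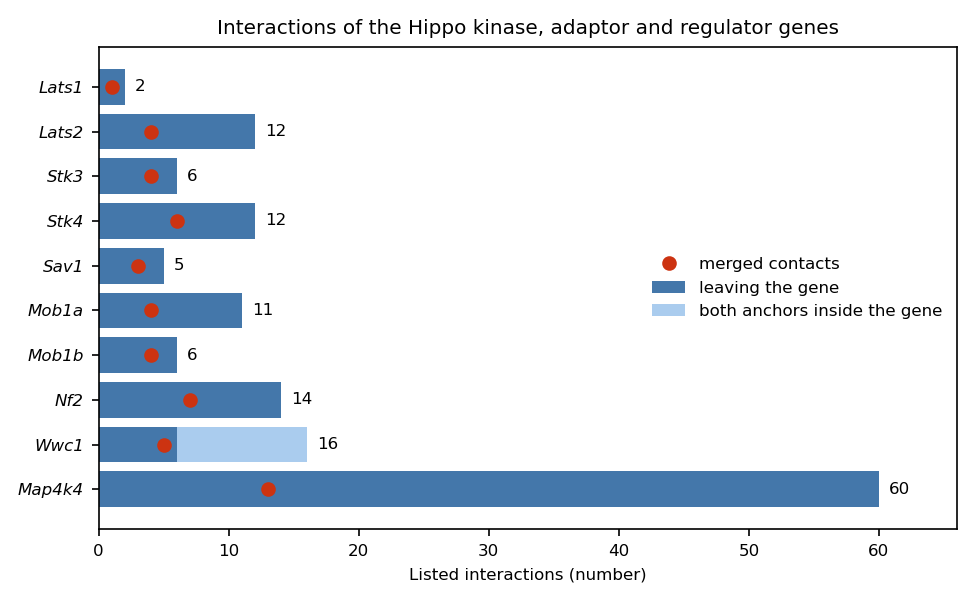
Number of listed interactions of each of the 10 genes (bars; dark, leaving the gene; light, with both anchors inside the gene) and the number of contacts after adjacent interactions are merged (points). Map4k4 has 60 interactions in 13 contacts, Wwc1 is the only one of the 10 with interactions inside the gene (10 of 16), and Lats1 has 2 interactions in 1 contact.

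**Figure D2:**
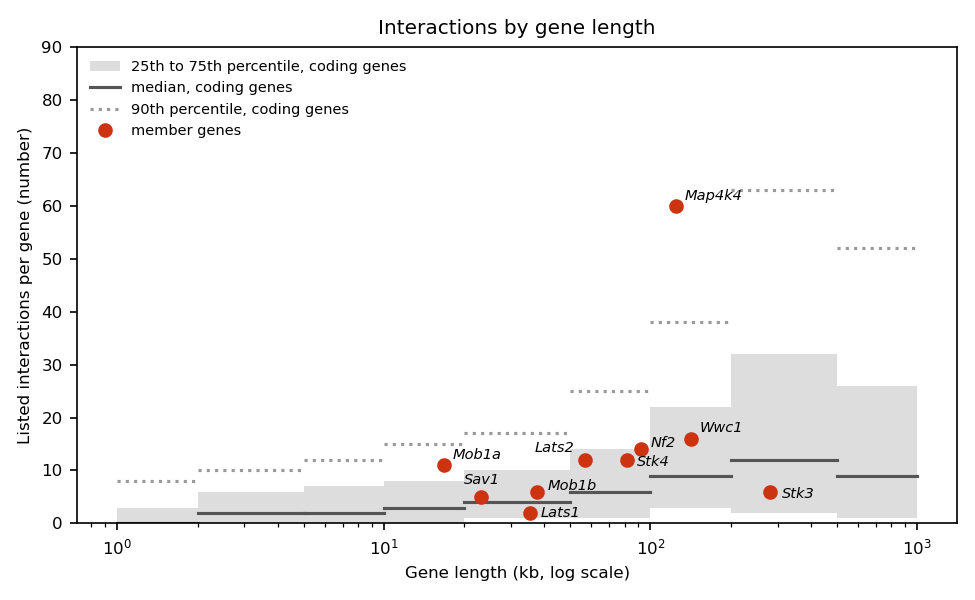
Interactions per gene against gene length on a log scale; the gray band, solid lines and dotted lines give the 25th to 75th percentile, the median and the 90th percentile of coding genes in 9 length classes, and the points are the 10 genes. Map4k4, at 60, lies above the 90th percentile of its class, 38, while Lats1 and Stk3 lie below the medians of theirs, 4 and 12.

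Among the kinases that phosphorylate YAP, Lats2 (chr14:57689662-57746212) had 12 interactions over its 56.6 kb and Lats1 (chr10:7681200-7716461) had 2 over 35.3 kb, or 1.7 and 0.4 per 10 kb bin covered. Coding genes of the length of Lats2 had a median of 5, and 28.0% of them had at least as many as Lats2, the sense in which "as many" is used throughout. For the length of Lats1 the median was 4, and 69.5% had as many as Lats1. The paralogs therefore lay on opposite sides of the median for their lengths.

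The contacts of Lats2 all ran toward higher coordinates, the side of its start site, over 90 to 230 kb. They left from each of the 7 bins covered, and the low-coordinate bin, at the far end from the main start site, had the most, 4. Most of that bin, 57680001 to 57690000, lies outside Lats2, which begins at 57689662. When a bin counted only if its midpoint lay in the gene or the 2.5 kb around it, Lats2 had 8. The bins at its 2 annotated start sites had 1 and 2, and both also hold the predicted gene Gm52140, so 9 of the 12 were in bins without another coding gene. The partners fell in only 4 bins, and 6 of the 12 interactions reached the bin at an end of Micu2, which encodes a regulator of mitochondrial calcium uptake. The bins at Sap18, a co-repressor subunit, and at Ska3, a kinetochore component, together with Mrpl57, a mitochondrial ribosomal protein, took 3 and 1, and the other 2 reached a bin beside that of Micu2. The Micu2 bin had 15 interactions in the whole list, so Lats2 made up 40.0% of them. After merging of adjacent calls, Lats2 had 4 contacts.

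Both interactions of Lats1 led to a single bin 200 to 210 kb lower, at Ulbp1, which encodes a ligand of the NKG2D receptor of natural killer cells. They left from the start-site bins, which also hold the ends of Pcmt1 and Nup43. The annotated span of Pcmt1, which encodes a protein-repair methyltransferase, reaches over the start of Lats1, so these interactions cannot be assigned to Lats1 alone. In bins free of any other coding gene, Lats1 had 0.

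The MST kinase genes also differed. Stk4 (chr2:164074113-164155524), encoding MST1, had 12 interactions over 81.4 kb, and Stk3 (chr15:34875499-35155882), encoding MST2, had 6 over 280 kb. This is 1.3 and 0.21 per bin covered. Medians for genes of like length were 7 and 13, and 33.9% and 64.4% of those genes had as many.

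Every interaction of Stk4 led to 1 of 3 bins at 230 to 330 kb higher: 5 to the bin at an end of Matn4 (matrilin-4, an extracellular matrix protein), 5 to the bin that holds the other end of Matn4 and an end of Rbpjl, and 2 to a bin next to these without a coding gene. Rbpjl encodes a relative of RBPJ, the DNA-binding factor of Notch signaling. They left from 7 of the 9 bins covered, with 1 or 2 in each, and the start-site bin, which also holds an end of Tomm34, had 2 (16.7%). All 12 passed over the same 12 coding genes, a cluster of seminal vesicle protein and WAP-type protease inhibitor genes together with the potassium channel gene Kcns1. Of these 12, 8 had 0 interactions of their own and none had more than 2 (genes chosen after their values were seen). Of all coding genes, 67.8% had at least 1, with a median of 3. These 12 were not set beside genes of like length.

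The interactions of Stk3 ran to higher coordinates as well, from 5 of the 29 bins it covers, with 3 of the 6 in its last 2 bins. Of the 6, 5 reached the bin at the low-coordinate end of Vps13b, which encodes a Golgi-associated lipid transfer protein, 220 kb or more away. The other 1 reached the opposite end of Vps13b at 780 kb, in a bin shared with the cytochrome oxidase subunit gene Cox6c. All 6 passed over Osr2, a zinc finger transcription factor gene with 1 interaction.

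Counting only interactions that left the gene, Lats2, Stk3, Stk4 and Wwc1 had fewer partner bins than bins used within the gene (4 against 7, 2 against 5, 3 against 7, and 3 against 4). That held for 4 of the 9 members with at least 5 interactions leaving the gene, and for 9.88% of the 8367 such coding genes, or 13.7% of those of 16 to 300 kb. Contacts on a single side were seen at 4 of the 9 (Lats2, Stk3, Stk4 and Mob1b), close to the 42.7% of those 8367 genes.

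**Figure D3:**
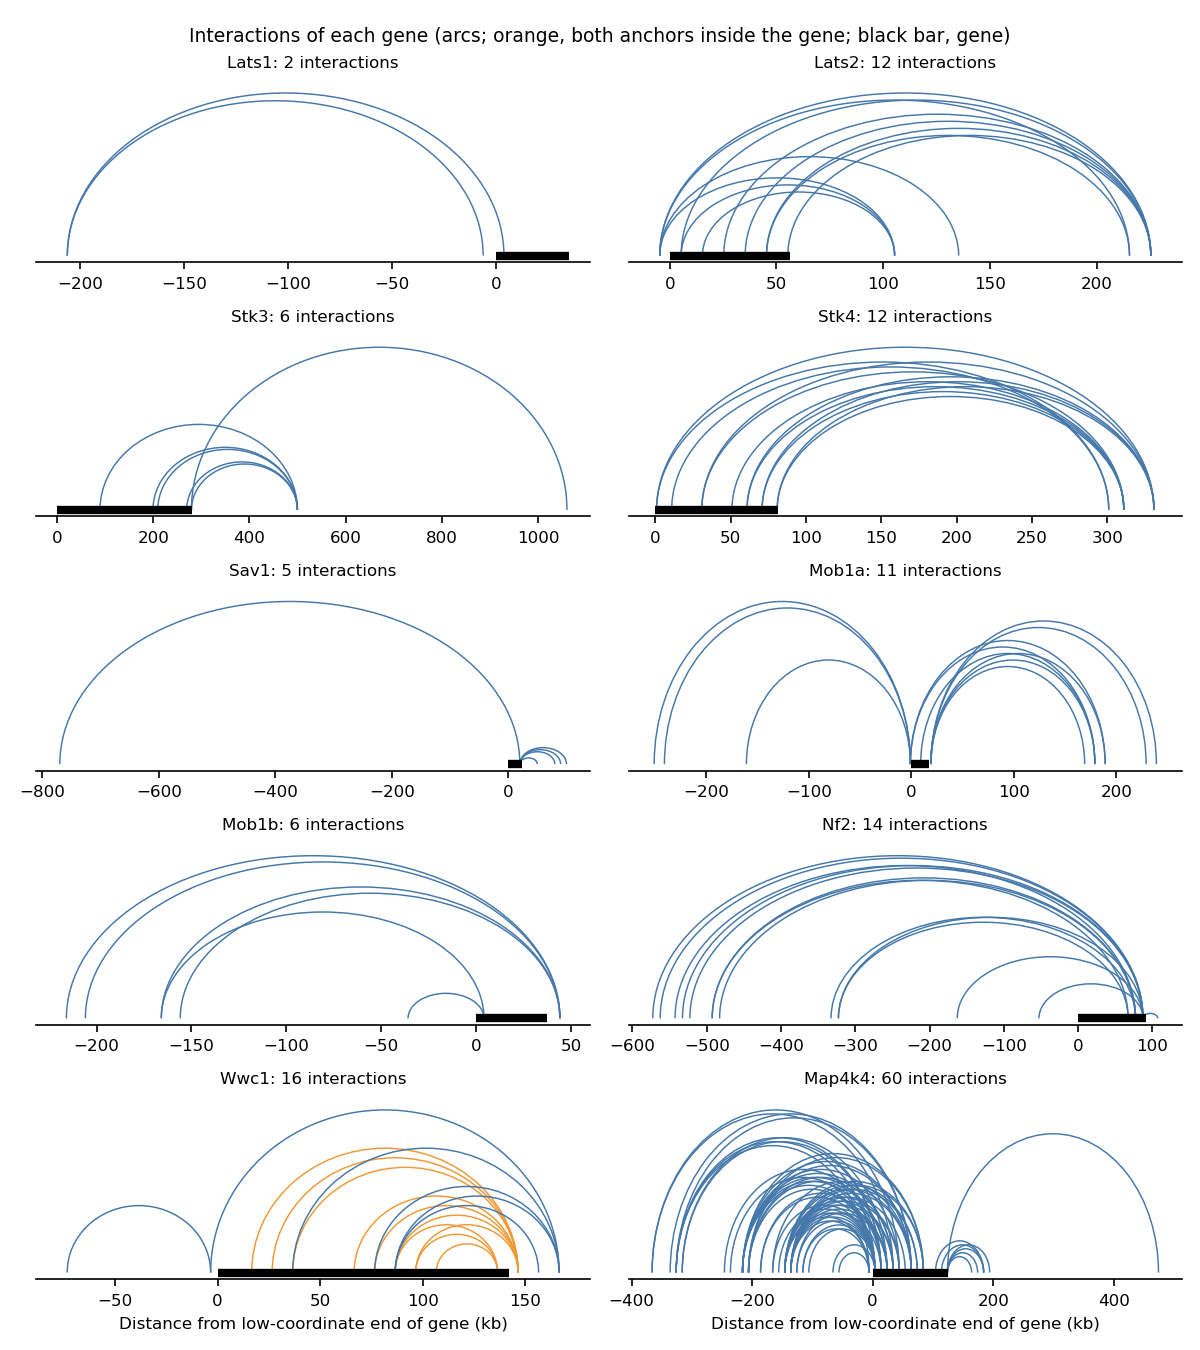
Interactions of each gene drawn as arcs between bin centres, by distance in kb from the low-coordinate end of the gene (black bar); each panel has its own scale. The arcs of Lats2 and Stk4 leave from bins across the gene and meet at 4 and 3 partner bins. Those of Stk3 leave from 5 of its 29 bins and meet at 2. The arcs of Nf2 leave from 3 bins at its high-coordinate end toward 12 partner bins, and 10 of the 16 arcs of Wwc1 (orange) stay inside the gene.

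The other 5 of the 9 had more partner bins than bins used within the gene: 5 against 1 at Sav1, 8 against 3 at Mob1a, 5 against 2 at Mob1b, 12 against 3 at Nf2 and 23 against 13 at Map4k4. Among the adaptors, Sav1 (chr12:69965009-69988141), the scaffold of the MST kinases, had 5 interactions, all from the start-site bin at 69980001 to 69990000, each with a different partner bin. Of these, 4 lay 30 to 80 kb higher at an end of or inside Nin, encoding the centrosomal protein ninein. These 4 partner bins had no other interaction in the list, as also seen for some partner bins of Mob1a, Mob1b, Nf2, Wwc1 and Map4k4. The median over all anchors in the list was 2. The other 1 of the 5 interactions of Sav1 spanned 790 kb, over 13 coding genes, to a bin at the ends of Pole2, a subunit of DNA polymerase epsilon, and Dnaaf2, a dynein arm assembly factor. Among the genes it passed over was Map4k5, a relative of Map4k4. The median for genes of like length was 4.

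Mob1a (chr6:83326034-83342812) had 11 interactions and Mob1b (chr5:88720871-88758455) had 6, or 3.7 and 1.0 per bin covered, against medians of 3 and 4 for their lengths. Of the genes of the length of Mob1a, 18.8% had as many, and for Mob1b 44.2%. Of the interactions of Mob1a, 3 ran to lower and 8 to higher coordinates, over 150 to 250 kb. Its start-site bin had 5 interactions and its far bin another 5. The higher partners were led by the bins at Dguok, the mitochondrial deoxyguanosine kinase gene, with 3, and at Actg2, a smooth muscle actin gene, with 2, and the lower ones lay at Pcgf1, a Polycomb subunit, the homeobox genes Tlx2 and Lbx2, and Dctn1, a dynactin subunit, beside 1700003E16Rik. The start of Mob1a lies within the bin that also holds an end of Mthfd2, a mitochondrial folate enzyme gene, and the far bin holds an end of Bola3, so only 1 interaction was in a bin without another coding gene.

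All 6 interactions of Mob1b ran to lower coordinates over 40 to 260 kb. Of these, 2 left from the start-site bin and 4 from the far bin, which lies just beyond the gene within the 2.5 kb window and also holds the low-coordinate end of Dck, the deoxycytidine kinase gene. Counted over the gene body alone, Mob1b had 2. Its partner bins included those at Utp3 (2), encoding a ribosome biogenesis factor, and at Rufy3, Jchain and Enam (1 each), which encode a RUN domain protein, the immunoglobulin joining chain and the enamel protein enamelin.

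Nf2 (chr11:4757639-4849544), the tumor suppressor merlin, had 14 interactions, 1.3 per bin covered, against a median of 7 for its length, and 30.7% of genes of that length had as many. They left from only 3 of the 11 bins covered, with 8 at the bin of the main start site, 4 at that of the second start site and 2 in the bin next to it. The share at start sites was 85.7%. For the 3861 coding genes of 16 to 150 kb with a start site and at least 5 interactions, the median share was 50.7%, with an interquartile range of 25% to 80.0%. In that range lay Mob1a (45.5%), Mob1b (33.3%), Wwc1 (62.5%) and Lats2 (25%), at its lower bound. Sav1 lay above the range at 100%, and Stk4 below it.

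The contacts of Nf2 were also long. Their median distance was 560 kb, against 205 kb over the 144 interactions of all 10 genes and 180 kb in the whole list. Nf2 had 8 of the 10 member interactions over 500 kb. Interactions of that length made up 6.94% of those of the 10 genes, less than the 9.11% in the whole list. The 8 of Nf2 lay in blocks of 2, 3 and 3 adjacent interactions, and after merging the 14 interactions of Nf2 made 7 contacts. The median distance was not computed on merged contacts. All but 1 of the 14 ran to lower coordinates, through the gene and past its end. Ends of 9 coding genes lay among the 12 partner bins. Lif, encoding leukemia inhibitory factor, was reached by 3 interactions at 560 to 570 kb, and the neighboring cytokine gene Osm (oncostatin M) by 1 at 610 kb. Hormad2, a meiotic gene, was reached by 2 at 390 to 410 kb. Castor1, an arginine sensor of mTORC1, and Tbc1d10a, a regulator of Rab GTPases, were reached by 2 each at 620 to 660 kb, with 1 bin holding an end of both. The splicing factor gene Sf3a1 (chosen after its values were seen), the phosphatase gene Mtmr3, Uqcr10, a subunit of respiratory complex III, and Zmat5 were reached by 1 each. The Lif bins had 13 and 8 interactions in the whole list, of which Nf2 made up 15.4% and 12.5%. None of the bins of Nf2 from which these interactions left held another coding gene.

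Wwc1 (chr11:35838399-35980527), encoding KIBRA, had 16 interactions over 142 kb, against a median of 10 for its length, and 38.3% of genes of that length had as many. Its contacts were short, with a median of 75 kb and a maximum of 170 kb. Of the 16, 10 had both anchors inside the gene (62.5%), and each joined 1 of the 2 bins at the start site, which had 7 and 3, to a bin in the body of the gene. Among the 571 coding genes of like length with at least 5 interactions, the median share inside the gene was 10.9%, and 7.71% had a share as high as that of Wwc1. The 6 that left the gene came from its body and far end, with 0 from the start-site bins. Of these, 4 reached a bin at an end of Tenm2, a teneurin adhesion gene, and this bin had no other interaction in the list (Tenm2 had 8 in all). The other 2 reached a bin beside it without a coding gene and, on the lower side, Pank3, a pantothenate kinase gene. The far bin, with 2 interactions, also holds an end of Rars. After merging of adjacent calls the 16 made 5 contacts. A block of 10 adjacent interactions held some inside the gene and some that reached the Tenm2 bin. The 2 kinds are therefore not separate contacts there, and the share inside the gene was not computed on merged contacts.

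**Figure D4:**
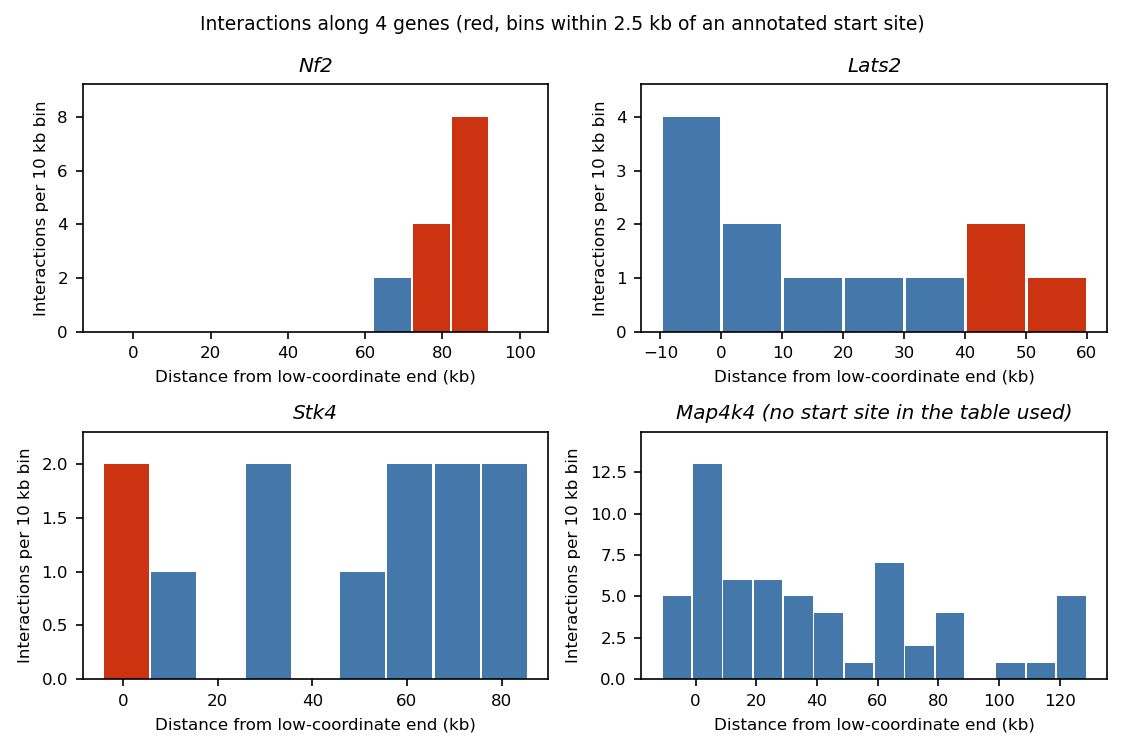
Interactions per 10 kb bin along Nf2, Lats2, Stk4 and Map4k4, by distance in kb from the low-coordinate end of the gene; red bars are bins within 2.5 kb of an annotated start site (the start site of Map4k4 was not in the table used). Nf2 has 8 and 4 interactions in its start-site bins and 0 in the low part of the gene, whereas the counts of Stk4 are 2 or fewer in every bin and those of Map4k4 reach 13 at its low-coordinate end.

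Map4k4 (chr1:39900902-40026310), the kinase parallel to MST, stood apart with 60 interactions over 125 kb, 4.3 per bin covered. Only 205 coding genes had as many, itself included, and 3.11% of the 996 genes of like length did, with a median of 9. The contacts left from 13 of its 14 bins. The bin at its low-coordinate end had the most, 13. Over all anchors in the list the 90th percentile was 8 and the 99th was 20. The other bins had 6 or fewer, except 7 in the bin from 39960001 to 39970000, inside the gene. None of its bins held another coding gene.

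Of the 60, 53 ran to lower coordinates. The partners with the most interactions were a pair of adjacent bins without a coding gene at chr1:39750001-39770000, with 8 and 10, and a pair inside Rfx8, a gene of the RFX transcription factor family, at chr1:39680001-39700000, with 7 and 5. Map4k4 made up 52.6 to 71.4% of all interactions of these 4 bins. At gene ends, Rnf149, a ubiquitin ligase gene, was reached by 4, Rfx8 by 3, Cnot11, a subunit of the CCR4-NOT deadenylase, by 2 and Creg2, a secreted glycoprotein gene, by 1, at 190 to 410 kb. On the higher side, Il1r2, the decoy receptor of interleukin 1, was reached by 3 and the IL-36 receptor gene Il1rl2 by 1, and the 7 higher interactions left from the last 3 bins of the gene. Merged, the 60 made 13 contacts, and 25 of them belonged to a single block between chr1:39730001-39800000 and chr1:39890001-39990000.

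Over all 10 genes, 134 interactions left the gene, and 54.5% of their partner bins, counted once per interaction, lay at an end of another coding gene, against 47.9% for all coding genes. Without Map4k4, whose partner bins held no coding gene for 32 of 60 and lay inside a gene for 14, the share was 79.7% (59 of 74). Map4k4 was left out after its values were seen, and no gene was left out of the 47.9%, so only the 54.5% is to be set beside it. At least 1 whole coding gene lay between the anchors for 85.8% of the 134 (85.1% without Map4k4) and for 58.8% over all coding genes. For Map4k4, 51 interactions passed over the predicted gene Gm3646 (chosen after its values were seen), alone or with further genes, among them Rfx8 in 10. The interactions of a gene share bins and adjoin each other, so these shares have no error that could be read as replicate error and were not tested.

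For context, 71 further genes of the pathway were counted by the same rule, and 64 of them had an interaction (90.1%, exact 95% interval 80.7 to 95.9%). Over all coding genes the share was 67.8%. The median count was 8, against 3 over all coding genes. These 71 genes were listed with earlier results known and were not set beside genes of like length, so the interval does not test the difference. The highest counts were at Tead1, a DNA-binding partner of YAP, with 79, Vgll4, a competitor of YAP for TEAD, with 51, Frmd6, a FERM domain protein upstream of the kinases, with 46, Taok3, a TAO kinase, with 38, and Map4k3 with 37. Map4k4, with 60, lay between Tead1 and Vgll4 in that order. The order did not hold after merging of adjacent calls: Fat1, a giant cadherin upstream of the pathway, had 15 contacts, Frmd6 and Fat3 14, Vgll4 13, Tead1 12, Map4k3 8 and Taok3 6, beside 13 for Map4k4 (Fat1 and Fat3 were chosen after their values were seen). The other MAP4K-related genes all had interactions, 6 at Map4k1, 10 at Map4k2, 14 at Map4k5, 22 at Mink1 and 24 at Tnik, which spans 409 kb. Map4k3, at 148 kb, is the nearest of these to Map4k4 in length.

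The nearest relatives of the other members varied too. Wwc2, the paralog of Wwc1, had 14 interactions over 164 kb. Among the NDR kinases, relatives of LATS, Stk38l had 14 and Stk38 had 0. Of other MOB genes, Mob3b had 22, Mob3a 15, Mob3c 2 and Mob2 0. Genes of the STRIPAK phosphatase complex, which opposes the MST kinases, had a median count of 5.5, against 3 over all coding genes. Of the 12, 10 had at least 1 (83.3%, against 67.8% of all coding genes), up to 29 at Slmap, the subunit that binds phosphorylated MST. Genes of the pathway without one included Strn, Stk38, Mob2, Wtip, Scrib and Crb1. At unknown depth, their contacts were not detected rather than shown to be absent. Yap1 itself had 3 and Wwtr1, encoding TAZ, had 14.

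**Figure D5:**
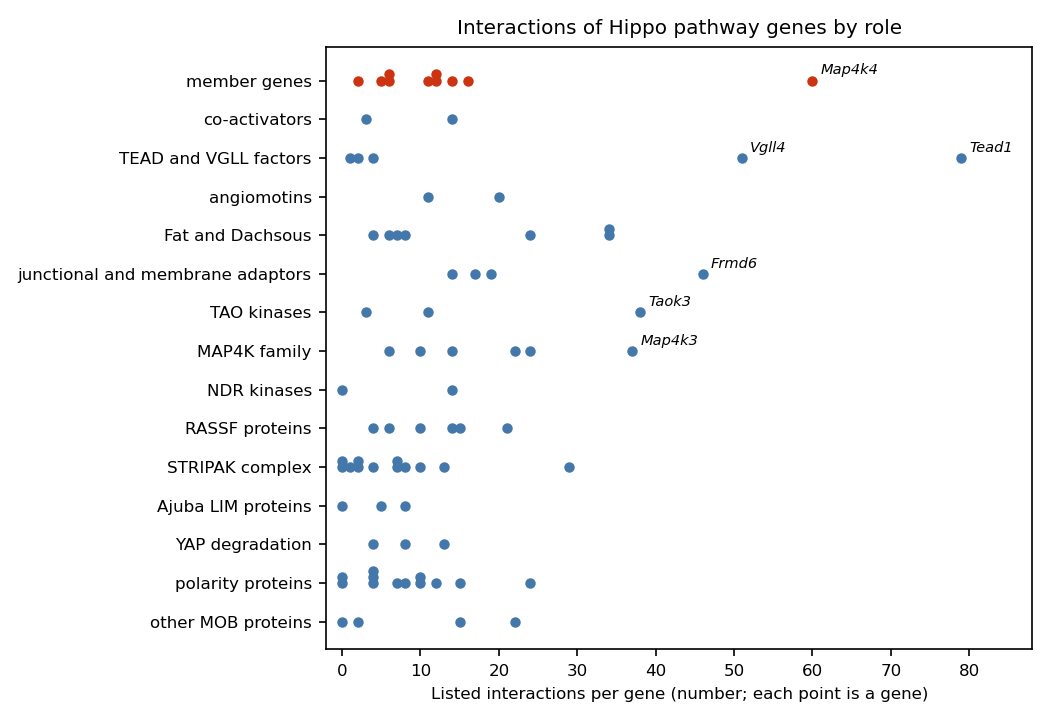
Interactions per gene for the 10 genes (red) and for 71 other autosomal genes of the pathway by role (blue); each point is a gene, and genes with the same count are stacked. Map4k4 (60) lies apart from the other 9, which have 16 or fewer, and among the other groups Tead1 (79), Vgll4 (51) and Frmd6 (46) are highest.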

How the data were processed

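Mouse YAP-M tumor and mNSC libraries were made with a micrococcal nuclease HiChIP kit, per the labels' protocols, although their titles say ChIP-seq. Per the submitters' processing notes, BWA and mm10 were used. The interaction caller, its threshold and whether replicates were pooled were not given in the sources. The authors deposited 1 list of coordinates (other values: chromosome, start and end of the 2 anchors, per the file headers), with no count, score or p-value, and anchors 20 to 1000 kb apart on 19 autosomes. A stricter threshold could not be applied.

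From these positions, interactions were counted per gene with Python 3.11.15 (pandas 2.3.3, scipy 1.17.1), using gene spans of RefSeq GRCm38.p6. Counting was tested on simulated interactions. Merging joined interactions whose anchors lay within 1 bin at both sides. Exact (Clopper-Pearson) 95% intervals cover counting error only. A 10 kb bin counts in full for each gene it touches, so neighboring genes share counts and short genes have more per kb. The members, the pathway list (74 genes; 71 scored, with 1 matched by a synonym, 2 not on an autosome and 1 not matched) and the marker lists were chosen with earlier results of these data known, and the motifs after the promoter sequences were seen. Named by rule were the 10 members, up to 8 genes with an end in a partner bin of each, the 5 other pathway genes with the most interactions and those with none (1 is not reported here); relatives of the members were named in addition. No test was run.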

Additional observations from a re-analysis of the deposited data

How the results depend on the processing

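No paired analysis was possible because the deposited positions carry nothing per library. For the same reason no replicate could be left out, and depth limits every count by an unknown amount. All 10 genes kept an interaction under 8 of 9 ways of counting (for start sites only, the 8 that could be scored), the exception being bins without another coding gene, where Lats1 had 0. The total of 144 and the median of 11.5 fell to 79 and 6.5 with gene ends only, to 41 and 4 with start sites only (8 genes) and to 51 and 4 after merging of adjacent calls; the medians of all coding genes were then 2, 1 and 2. In bins without another coding gene the median was 7.5, against 1 for all coding genes. Gene bodies alone, a window of 5 kb, bin midpoints, a minimum of 50 kb and leaving out interactions inside the gene gave totals of 128 to 149. The share of other pathway genes with an interaction, 90.1%, was 78.6% with start sites only (56 genes) and 78.9% in bins without another coding gene, against 60.1% and 51.1% of all coding genes. Over all annotated genes, coding or not, 53.0% had an interaction and the median count was 1. Of 88 counts of single genes under these settings, 26 moved by over 1.5 times.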
